A study of Mus musculus with 34 samples.

Results

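The CTCF map of C2C12 cells was compared between libraries from cells stained with a second antibody and libraries from other cells stained without it. The libraries are separate samples, so staining cannot be told apart from any other difference between the 2 sets. Of the 34 samples in the series, 5 made up this comparison, chosen by their labels. Each holds CTCF counts from 10000 cells of C2C12, a mouse myoblast line. In 3 dual-stained libraries, anti-CTCF was applied together with an antibody to H3K4me3, and the counts assigned to CTCF were used. In 2 single-stained libraries, anti-CTCF was the only antibody. The rabbit monoclonal anti-CTCF antibody had the same catalogue and lot number in all 5 libraries, and the anti-H3K4me3 antibody of the dual staining was a mouse monoclonal. No genotype or treatment differed between the groups per the labels. Whether the replicates are separate cultures is not stated, so every p-value here measures only how far these libraries spread, and that spread may be technical.

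In chromatin integration labelling, an antibody is recognised in fixed cells by a probe that carries DNA and a Tn5 transposase, the probe is inserted into the genome near the antibody, and the DNA beside the insertion is copied into RNA and sequenced. In the multi-target form, a sequence in each probe tells which antibody an insertion belongs to. CTCF is a zinc-finger protein that binds a long GC-rich motif at insulators and at the feet of chromatin loops, and it is also found at many promoters. H3K4me3 marks the starts of active genes, and H3K27ac marks active enhancers as well as active starts. The comparison asks how far CTCF counts differ between cells that were also stained for H3K4me3 and other cells that were not.

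The CTCF libraries held 4947351, 5239325 and 4064887 counts with dual staining and 5157909 and 6650940 with single staining, over 2631615 bins of 1 kb on the autosomes and X. Within a group, counts at CTCF sites (log2 of the count plus 1, libraries thinned to 4064887 counts) correlated across bins with Pearson's r from 0.768 to 0.772 in the 3 dual pairs and 0.769 in the single pair, and between groups with r from 0.741 to 0.755 in 6 pairs. The top 1% of bins of 2 libraries overlapped by 75.3 to 75.9% within dual staining, by 75.5% within single staining and by 73.1 to 74.5% between them. Bins are not independent replicates, so these values are descriptive. The labels were set beside the counts. The 37 promoters with a strict match to the CTCF motif held 7.04 to 7.87 times the library mean per bin in the 5 libraries. Promoters without one held 3.13 to 3.44 times. Those with a match also had more H3K4me3, at a median of 7.10 against 2.56 times the genome mean, so this contrast alone does not settle the label. In the H3K4me3 libraries of the same dual staining, the starts of myoblast markers had a median level of 18.1 times the genome mean, against 0.363 for pluripotency, 0.453 for neuronal and glial, 0.544 for liver, 0.907 for blood and 1.27 for endothelial markers. No library stood apart from its group, and no pair was a repeat deposit of one library: over 100 kb windows, chi-square per degree of freedom was 1.14 to 1.18 within groups and 1.47 to 1.64 between them.

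At the limits chosen here, the groups overlapped at CTCF sites and were separate in 2 other kinds of chromatin. With the second antibody, CTCF counts were denser at strongly H3K4me3-marked bins and thinner at bins with H3K27ac and little H3K4me3. Bins were sorted by the level of each mark in pooled 1000-cell libraries outside the comparison, where level means counts per bin over the genome mean. These libraries were dual-stained as well, H3K4me3 together with CTCF and H3K27ac together with elongating polymerase. They are therefore not maps made apart from dual staining. Density below is the CTCF count per bin divided by the mean per bin of the same library.

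CTCF-only bins (18919 bins with CTCF at 5 or more times and H3K4me3 under 2 times the mean) had a relative density of 7.53, 7.44 and 7.52 in the dual libraries and 7.45 and 7.24 in the single libraries. The groups overlapped, the dual mean was 1.98% higher, and the exact two-sided permutation test gave p = 0.2. With the limits for a marked bin doubled, the means were 13.43 and 12.92, a difference of 0.51 with an exact permutation p of 0.1, the smallest that this design allows. With the limits halved they were 3.064 and 3.058. Bins of both (16500 bins with CTCF at 5 or more and H3K4me3 at 10 or more) had 11.04, 11.34 and 11.37 against 11.22 and 10.8, again overlapping, with a mean 2.13% higher and an exact permutation p of 0.4. The CTCF levels that defined these classes came from dual-stained 1000-cell libraries, so these classes hold the sites that dual staining finds. The other classes below were required to have CTCF under 2 times the mean in the same dual-stained libraries, and so are selected for low CTCF under dual staining.

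H3K4me3-only bins (2760 bins with H3K4me3 at 10 or more times and CTCF under 2 times the mean) had a relative CTCF density of 2.60, 2.84 and 2.63 with dual staining and 2.41 and 2.38 with single staining. All 3 dual libraries lay above both single libraries, and the mean was 12.2% higher (2.69 ± 0.13 SD, n = 3, against 2.40 ± 0.02, n = 2). The exact two-sided permutation test gave p = 0.1, the smallest that 3 libraries against 2 allow in 10 arrangements, and 0.233 after Benjamini-Hochberg adjustment over 7 summary values. The H3K4me3 libraries of the same dual staining had 15.48 to 15.99 times the mean in these bins. With the limits for a marked bin halved, the difference was 0.016 in place of 0.29 (exact permutation p = 0.9), and with the limits doubled it was 0.73.

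H3K27ac-only bins (10679 bins with H3K27ac at 5 or more times, H3K4me3 and CTCF under 2 times the mean) went the other way. Their relative CTCF density was 1.61, 1.63 and 1.62 with dual staining and 1.80 and 1.85 with single staining, 11.3% lower with dual staining (1.62 ± 0.0055 SD, n = 3, against 1.83 ± 0.031, n = 2). Every dual library lay below both single libraries (exact two-sided permutation p = 0.1, adjusted p = 0.233). The difference was -0.082 with halved and -0.35 with doubled limits. Thinned to equal depth, the 5 libraries had 1.62, 1.63, 1.62, 1.81 and 1.85. The H3K4me3 libraries of the dual staining had 1.56 to 1.63 times the mean there.

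Gene starts (59293 bins, 2.25% of the genome's bins) had a relative density of 3.317, 3.431 and 3.397 with dual staining and 3.251 and 3.144 with single staining, which is 5.77% higher with dual staining and does not overlap (exact permutation p = 0.1, adjusted p = 0.233). The ratio of H3K4me3-only to CTCF-only density, which no scaling of whole libraries can move, was 0.346, 0.381 and 0.350 against 0.323 and 0.329 (exact permutation p = 0.2, adjusted p = 0.28). The fullest 1% of bins took 15.44, 15.41 and 15.85% of counts against 15.70 and 15.00%, overlapping between groups (exact permutation p = 0.6).

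**Figure D1:**
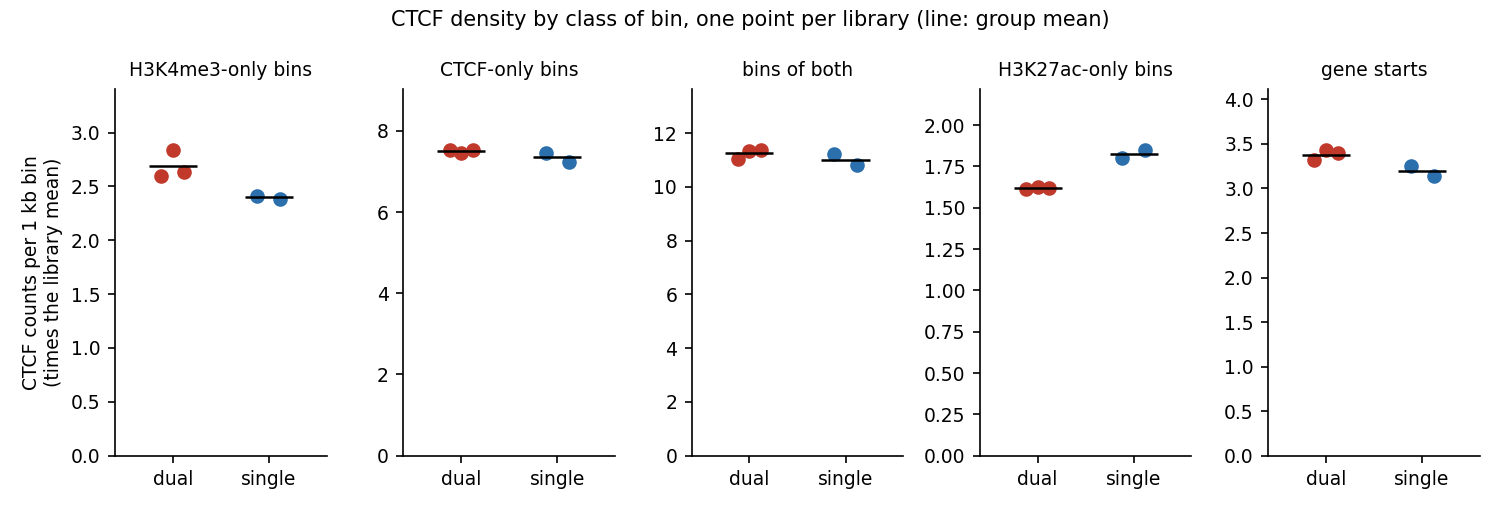
Relative CTCF density (CTCF counts per 1 kb bin over the library mean, vertical axes from 0) in 4 classes of bin and at gene starts, 1 point per library, with lines at the means of the 3 dual and 2 single libraries. The groups overlap in CTCF-only bins and bins of both, dual libraries lie higher in H3K4me3-only bins (2.60 to 2.84 against 2.38 to 2.41) and at gene starts, and lower in H3K27ac-only bins (1.61 to 1.63 against 1.80 to 1.85).

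Differences were then laid out by the level of each mark, with no limit on CTCF except where CTCF-only bins are named. Bands by H3K27ac, by elongating polymerase and by position were added after the class values had been seen, and all are descriptions with no test. Over all bins with H3K4me3 at 20 or more times the mean (14348 bins), CTCF density was 8.439, 8.977 and 8.726 with dual staining and 7.998 and 7.702 with single staining, a difference of 11%. Bins with H3K4me3 from 5 to 10 times the mean were 3.51% lower with dual staining (4.76, 4.79 and 4.84 against 5.02 and 4.92), so H3K4me3 alone did not order the differences. Among bins with H3K27ac under 2 times the mean, the dual excess went with H3K4me3 from 2.00% at 2 to 5 times to 2.96% at 5 to 10, 8.28% at 10 to 20 and 17.99% at 20 or more (1107 bins with 5.83, 6.26 and 6.06 against 5.31 and 4.94). The 2 groups did not overlap in any of these bands.

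Among bins with H3K4me3 under 2 times the mean, CTCF density was lower with dual staining the more H3K27ac the bins held. It was 2.93% higher where H3K27ac was 0, then 3.31% lower at 2 to 5 times the mean, 10.5% lower at 5 to 10, 13.5% lower at 10 to 20 and 18.98% lower at 20 or more. That last band held 172 bins with densities of 3.57, 3.69 and 3.69 against 4.43 and 4.57. The bins richest in H3K27ac as a whole (2879 bins at 20 or more times the mean, whatever their H3K4me3) had 9.82, 9.97 and 10.0 with dual staining and 11.2 and 11.1 with single staining, 10.7% lower.

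CTCF-only bins, whose mean differed little, split along the same line. Where H3K27ac was 0 (967 bins), dual libraries had 7.42, 7.22 and 7.24 and single libraries 6.97 and 6.73, which is 6.52% higher with dual staining. At H3K27ac of 2 to 5 times the mean (5114 bins) the groups overlapped, with a difference of 0.865% toward single staining. At 5 to 10 times the mean dual staining was 8.30% lower (922 bins), at 10 to 20 times 12.8% lower (283 bins), and at 20 or more times 21.9% lower, with 5.562, 5.809 and 4.996 against 6.95 and 7.01 in 46 bins.

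**Figure D2:**
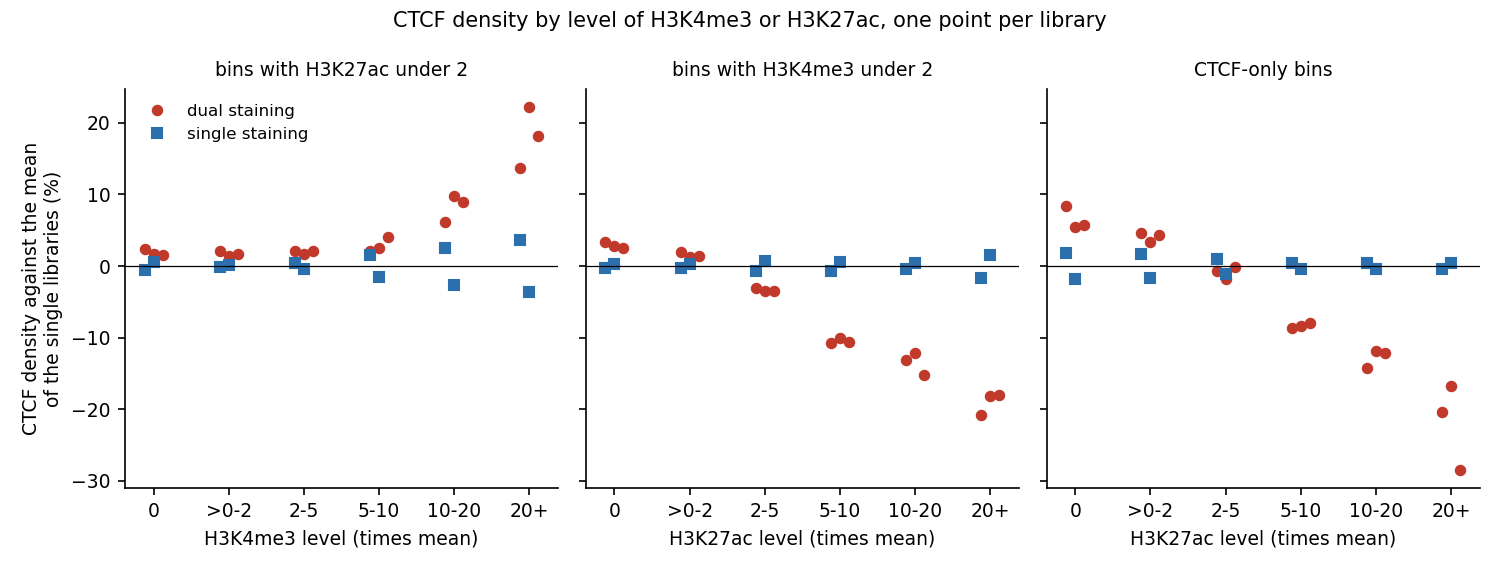
CTCF density of each library as a percent difference from the mean of the 2 single libraries (vertical axis), by the level of H3K4me3 or H3K27ac in the bins (horizontal axis, times the genome mean), for bins with H3K27ac under 2, bins with H3K4me3 under 2 and CTCF-only bins. Dual libraries (circles) lie above single libraries (squares) at high H3K4me3, up to a mean excess of 17.99%, and below them at high H3K27ac, down to a mean deficit of 18.98% and, in CTCF-only bins, 21.9%.

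Elongating polymerase (Pol2S2P, phosphorylated on serine of its repeat tail) marks transcribed gene bodies. Among bins with H3K4me3 under 2 times the mean, dual CTCF density was 6.65% lower at Pol2S2P of 5 to 10 times the mean and 11.7% lower at 10 to 20. With H3K27ac also under 2 times the mean, the bins with Pol2S2P at 2 to 5 times overlapped between groups (0.585% lower with dual staining), and those at 5 to 10 times were 3.08% lower (1.602, 1.576 and 1.587 against 1.61 and 1.67). Bins with H3K27ac at 10 or more and H3K4me3 under 10 times the mean were 14.1% lower with dual staining where they lay over 2 kb from every end of a protein-coding gene (9909 bins, 5.14, 5.19 and 5.14 against 6.01 and 5.99), and 11.02% lower nearer to one (611 bins). Bins with H3K4me3 at 20 or more were 12.7% higher with dual staining within 2 kb of a gene end (11706 bins) and 5.04% higher beyond (2642 bins, 9.52, 10.0 and 9.75 against 9.41 and 9.18).

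Single 1 kb bins were then tested with edgeR's quasi-likelihood test, with log2 fold changes given as dual over single. Of 82605 bins with enough counts, 79 were called at a Benjamini-Hochberg adjusted p under 0.05, which is 0.0956% of the bins tested. Of these, 35 were higher with dual staining (0.0424%) and 44 lower (0.0533%). Of the tested bins, 60548 lay over 2 kb from any end of a protein-coding gene. Among these, 56 were called (0.0925%), 13 higher (0.0215%) and 43 lower (0.071%) with dual staining. The median bin differed by 0.00 on the log2 scale, bins at the 10th and 90th percentiles by -0.52 and 0.52, and 55.4% of the 95% intervals lay within a 2-fold change. The calls are few and fragile: DESeq2 made none, thinning the libraries to equal depth left none, and leaving out 1 library left between 0 and 4. They are given as the places where the 2 kinds of library differed most.

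The 35 dual-higher bins sat at strong H3K4me3. Their median H3K4me3 level was 68.1 times the mean, and 25 of 35 had 20 or more times the mean, against 13.8% of all tested bins. In 18 of 35 the bin belonged to a gene start, against 18.5% of tested bins. The H3K4me3 band of 20 or more held 11408 tested bins, of which 25 were called, all higher with dual staining, with a median log2 fold change of 0.17 over the band. The 44 single-higher bins sat elsewhere: 43 of 44 were over 2 kb from any end of a protein-coding gene, against 73.3% of tested bins. None of the 44 had H3K4me3 at 20 or more times the mean. Their median H3K27ac level was 8.71 times the mean, and 34 of 44 had at least 5 times the mean, against 30.6% of tested bins.

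**Figure D3:**
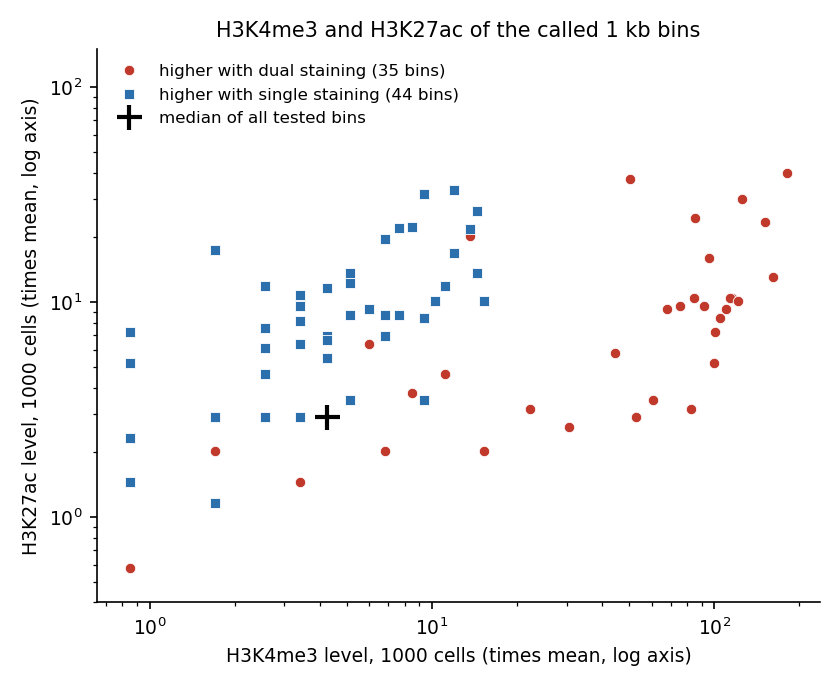
H3K4me3 level (horizontal, log axis) and H3K27ac level (vertical, log axis) of the called 1 kb bins, each in times the genome mean of pooled 1000-cell libraries, with a cross at the medians of all tested bins (4.26 and 2.90). The 35 bins higher with dual staining lie mostly at H3K4me3 over 20, and the 44 bins higher with single staining lie at H3K4me3 up to 15.3 and mostly at H3K27ac over 5.

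The largest dual-higher change was at chr4:64045741-64046740 (GRCm38), within Tnc and 0.275 kb from its start. Tnc encodes tenascin C, a matrix glycoprotein. This bin held 16, 10 and 12 counts with dual staining and 0 and 3 with single staining, or 3.23, 1.91 and 2.95 against 0 and 0.451 counts per 1000000 counts of the library (CPM). The log2 fold change was 3.29 ± 0.76 (SE, edgeR adjusted p = 0.0280), a fit that rests in part on a library with no count. The H3K4me3 level of the bin was 52.8 times the mean.

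Other dual-higher bins lay close to gene starts. At chr3:58524766-58525765, within Serp1 and 0.056 kb from the start of the translation factor gene Eif2a, the 5 libraries had 3.84, 4.77 and 2.95 CPM against 1.36 and 0.752 (1.93 ± 0.39, edgeR adjusted p = 0.0108). Psmd3, a subunit of the proteasome's regulatory particle, had 3.23, 3.25 and 4.43 against 1.16 and 0.752 CPM at chr11:98682601-98683600 (1.92 ± 0.41). Ptprk, a receptor tyrosine phosphatase, had 4.04, 6.87 and 3.44 against 2.13 and 0.902 CPM at chr10:28074891-28075890 (1.75 ± 0.34), with H3K4me3 at 100.5 times the mean. Separate groups were a condition for naming these bins, and the highest single library reached 2.13 CPM at Ptprk.

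Ext1, which builds the heparan sulfate chain, had 4.65, 6.87 and 2.95 against 1.55 and 1.65 CPM at chr15:53344786-53345785 (1.62 ± 0.33, H3K4me3 at 113 times the mean). Zc3hav1l had 2.83, 4.39 and 4.92 against 0.775 and 1.504 CPM at chr6:38297846-38298845 (1.73 ± 0.37), and Fam120a 3.64, 4.39 and 4.18 against 0.969 and 1.65 CPM at chr13:48965806-48966805 (1.57 ± 0.36). A bin with little of either mark also passed: chr6:67168731-67169730, in no annotated gene and 97.3 kb from Serbp1, had 2.43, 3.44 and 2.71 against 0.388 and 0.752 CPM (2.23 ± 0.53) with H3K4me3 at 0.852 and H3K27ac at 0.581 times the mean.

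Further called bins, named here after their values were seen, include the gene of connexin 43, Gja1, where 2 adjacent bins were called. The first had 7.48, 9.73 and 7.13 against 3.68 and 4.51 CPM, and the second 5.26, 4.77 and 6.89 against 1.75 and 2.86. Cd44, the hyaluronan receptor, had 7.68, 9.54 and 7.13 against 3.88 and 3.76 CPM. Klf6, a zinc-finger transcription factor, had 3.64, 6.49 and 5.41 against 2.71 and 1.35 CPM, and Actn4, an actin crosslinker, 3.64, 4.77 and 5.41 against 1.75 and 1.504 CPM. The noncoding RNA genes Malat1 (3.84, 6.11 and 6.40 against 1.36 and 2.56 CPM) and Pvt1, beside Myc (8.29, 9.16 and 9.35 against 4.07 and 4.66 CPM, H3K4me3 at 181 times the mean), were also higher with dual staining.

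The largest single-higher change was at chr4:58032766-58033765, in no annotated gene and 23.6 kb from Txndc8. The counts were 4, 5 and 1 with dual staining and 17 and 25 with single staining, or 0.809, 0.954 and 0.246 against 3.296 and 3.759 CPM (-2.30 ± 0.45, edgeR adjusted p = 0.00437). Chst3, a chondroitin sulfotransferase, had 0.809, 0.764 and 0.492 against 3.10 and 3.01 CPM at chr10:60210756-60211755, 7.505 kb from its start (-2.08 ± 0.51). Osbpl3, an oxysterol-binding protein, had 0.606, 0.954 and 1.23 against 3.88 and 3.31 CPM at chr6:50389796-50390795, 65.4 kb from its start (-1.94 ± 0.42). These bins carried H3K27ac at 5.23, 11.9 and 12.2 times the mean and H3K4me3 at 0.852, 2.56 and 5.11.

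Acox2, a peroxisomal oxidase, had 0.404, 0.954 and 1.23 against 2.91 and 3.46 CPM at chr14:8231971-8232970 (-1.90 ± 0.45). A bin 12.3 kb from Baiap2l1, at chr5:144370416-144371415, had 0.809, 0.954 and 1.72 against 4.46 and 4.06 CPM (-1.89 ± 0.37), and a bin 158 kb from the nearest start, that of Tgs1, had 1.82, 1.14 and 0.492 against 3.88 and 4.51 CPM at chr4:3415991-3416990 (-1.81 ± 0.36). On chromosome 15 the bins within Card10, an adaptor of NF-kappa B signalling, and Csf2rb, a cytokine receptor chain, had 1.01, 0.764 and 0.984 against 2.33 and 3.91 CPM (-1.79 ± 0.44) and 0.809, 1.72 and 0.984 against 3.10 and 4.66 CPM (-1.72 ± 0.37). Separate groups were a condition for naming these 8 as well. Among the rest, named after its value was seen, was a bin within Met, the receptor for hepatocyte growth factor, with 1.82, 0.954 and 2.95 against 6.59 and 4.81 CPM, 85.0 kb from the start.

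The 16 named bins kept their direction in 86 of 86 values of the alternatives for the dual-higher and 88 of 88 for the single-higher bins. This follows from their choice, since separate groups were a condition and the alternatives reuse the same counts. They stayed past the threshold in only 20 and 16 of these values. CTCF libraries of 1000 dual-stained cells, which the fit did not use, gave a mixed picture. The cut for each bin was the geometric mean of the 2 groups' mean CPM. These pooled libraries lay above it in 16 of 35 dual-higher bins, against 35.74% of all tested bins with a fold change above 0. In the single-higher bins they lay above it in 12 of 44, against 30.65% of all tested bins with a fold change below 0.

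**Figure D4:**
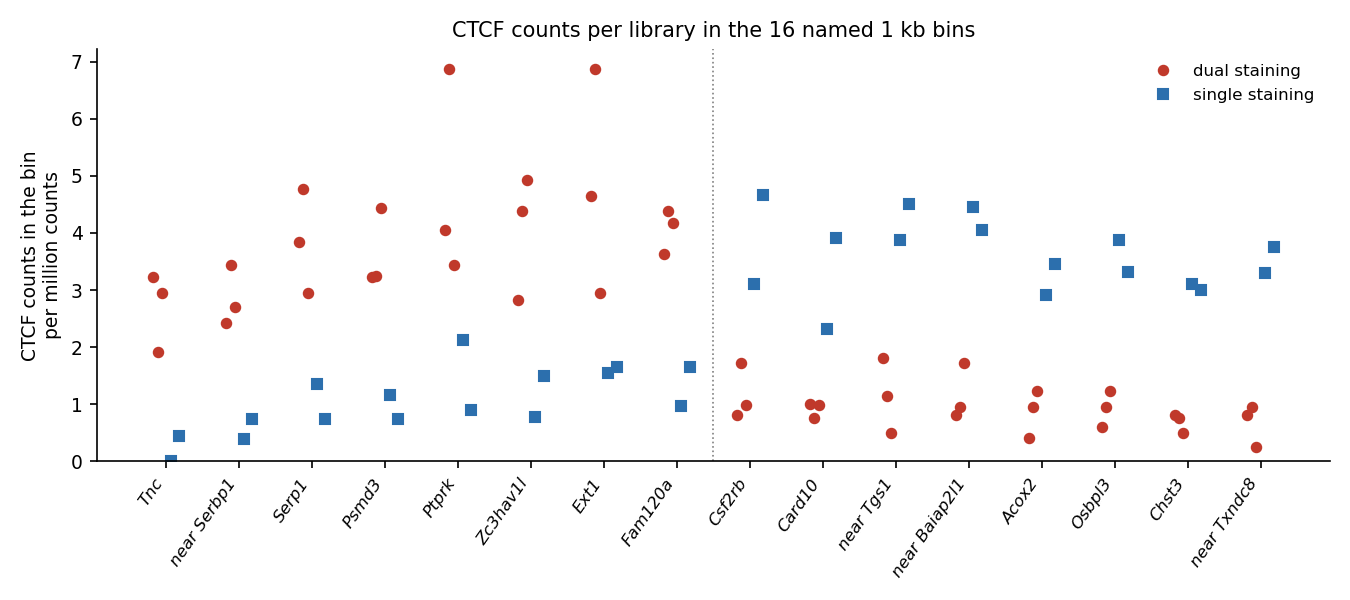
CTCF CPM in the 16 named 1 kb bins (vertical axis from 0), labelled by the gene they lie in or the nearest start, with dual libraries as circles and single libraries as squares. Dual libraries are higher in the 8 bins on the left, led by Tnc at 1.91 to 3.23 against 0 to 0.451, and lower in the 8 on the right.

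The 6 kept bins with the highest CTCF level and H3K4me3 under 2 times the mean in 1000 cells did not pass the test. They were chosen after other values had been seen and after the 24 very high bins were left out. In the 10000-cell libraries of the dual staining their H3K4me3 was at 7.07 to 13.6 times the mean. Of all 14491 tested CTCF-only bins, 6 were called, 2 higher and 4 lower with dual staining. Over all 82605 tested bins 79 were called (0.0956%), so CTCF-only bins were not called more often than bins in general. The one within Serpinb1c had 10.9, 10.9 and 11.8 CPM with dual staining and 10.9 and 12.5 with single staining (-0.08 ± 0.15), and the one within Klhdc9 had 8.69, 9.35 and 8.86 against 9.50 and 8.42 (0.01 ± 0.18). The widest difference among the 6 was at chr15:91609631-91610630, with 13.3, 12.02 and 12.3 against 7.75 and 8.27 CPM (0.64 ± 0.16, edgeR adjusted p = 0.119). The bin within Dennd3 also had separate groups, with 13.9, 13.2 and 14.3 against 10.5 and 9.77 CPM (0.45 ± 0.15, edgeR adjusted p = 0.326). So did the bin within Ptprr, with 12.5, 14.7 and 12.3 against 10.5 and 11.3 CPM. Of all tested 1 kb bins, 20848 of 82605 had separate groups.

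At gene starts, counts were summed over the bins within 1 kb of the start of transcription of each protein-coding gene. Of 12645 starts with enough counts, none was called (0.0%), the smallest adjusted p being 0.0606 by edgeR. DESeq2 also called 0. At an unadjusted p under 0.05, edgeR had 1371 starts, 1116 higher and 255 lower with dual staining. The median was 0.09, and 76.9% of the 95% intervals lay within a 2-fold change. This balance depends on the scaling, since TMM factors, which centre the starts themselves, moved the median to -0.01 and the split to 589 higher and 542 lower.

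By level of H3K4me3, the starts with the most had the highest median, but the medians did not rise steadily. They were 0.08 at a level of 0, 0.03 above 0 to 2, -0.01 at 5 to 10 and 0.06 at 10 to 20. The 4538 starts with H3K4me3 at 20 or more times the mean had a median of 0.18, with 725 higher and 36 lower at p under 0.05, and 76.4% of them lay above 0. The 1375 starts with H3K4me3 at 2 to 5 times had a median of -0.01, with 45 higher and 53 lower. With TMM factors these medians were 0.09 and -0.10.

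Tnc and Itgb7 were among the starts that came nearest to the threshold. Ndufaf4 and Lsm11 were not, and are shown for a strict CTCF motif. Each is given with the 250 bases before it, from RefSeq promoter sequences on GRCm38.p6. Tnc (chr4:64047016-64047265, minus strand) led the dual-higher starts and Itgb7 (chr15:102231936-102232185, minus strand), an integrin subunit, was among the single-higher ones with the most H3K27ac. Ndufaf4 (chr4:24897833-24898082, plus strand), an assembly factor of respiratory complex I, and Lsm11 (chr11:45944936-45945185, minus strand), a subunit of the particle that processes histone mRNA, hold a strict CTCF motif. Capitals mark matches to the CTCF core motif of 12 bases, searched on both strands in a loose form, which leaves several positions free, and in a strict form, every match of which is also a loose match.
Tnc: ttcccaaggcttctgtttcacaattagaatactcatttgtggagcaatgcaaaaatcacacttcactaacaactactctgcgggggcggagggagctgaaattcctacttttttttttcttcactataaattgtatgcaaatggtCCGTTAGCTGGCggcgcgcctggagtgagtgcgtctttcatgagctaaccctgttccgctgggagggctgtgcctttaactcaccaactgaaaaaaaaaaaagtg
Itgb7: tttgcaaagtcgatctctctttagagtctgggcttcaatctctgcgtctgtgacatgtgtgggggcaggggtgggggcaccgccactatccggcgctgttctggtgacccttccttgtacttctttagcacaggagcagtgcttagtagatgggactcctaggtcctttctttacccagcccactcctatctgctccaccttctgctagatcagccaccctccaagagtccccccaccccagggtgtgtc
Ndufaf4: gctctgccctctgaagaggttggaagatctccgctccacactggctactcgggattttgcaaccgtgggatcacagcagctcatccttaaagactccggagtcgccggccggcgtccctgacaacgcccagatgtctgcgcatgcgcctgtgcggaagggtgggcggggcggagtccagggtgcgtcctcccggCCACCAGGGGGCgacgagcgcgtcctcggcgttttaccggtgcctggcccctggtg
Lsm11: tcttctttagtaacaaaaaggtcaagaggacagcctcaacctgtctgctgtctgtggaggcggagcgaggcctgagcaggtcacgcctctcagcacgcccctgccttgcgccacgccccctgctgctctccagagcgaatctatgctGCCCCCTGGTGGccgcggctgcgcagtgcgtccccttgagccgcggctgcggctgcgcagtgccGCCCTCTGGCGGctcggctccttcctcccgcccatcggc

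Tnc had 8.29, 5.34 and 5.90 CPM with dual staining and 1.55 and 3.01 with single staining around its start (1.45 ± 0.30, edgeR adjusted p = 0.0606). Its 1 match is loose and ends 93 bases before the start. Itgb7 had 15.97, 11.64 and 12.55 against 18.2 and 21.2 CPM (-0.57 ± 0.14, edgeR adjusted p = 0.0753), with H3K27ac at 36.9 and H3K4me3 at 17.6 times the mean, and no match in the bases shown. Ndufaf4 had 28.5, 22.9 and 26.3 against 23.7 and 21.2 CPM (0.21 ± 0.11, edgeR adjusted p = 0.505), with overlapping groups. Lsm11 had 19, 17.8 and 20.4 against 15.3 and 16.7 CPM (0.24 ± 0.13, edgeR adjusted p = 0.528), and its groups did not overlap.

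Over all promoters, starts with and without the motif had similar medians. The loose form occurred in 1744 of the promoter windows of 300 bases (10.1%), and the 1356 tested starts with it had a median of 0.10 against 0.09 without. The strict form occurred in 37 windows (0.214%), with a median of 0.08 over 32 tested starts. In those windows the CTCF density was 7.67, 7.22 and 7.87 against 7.46 and 7.04. With the starts in 5 groups by the GC content of the promoter, the medians went from 0.06 in the lowest group (median GC 48.7%) to 0.14 in the highest (73%), and the median H3K4me3 level beside it from 5.96 to 19.9 times the mean, so the 2 cannot be told apart here.

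Among the other dual-higher starts nearest to the threshold, Ext1 had 8.29, 10.3 and 6.40 against 4.46 and 3.46 CPM (1.12 ± 0.25). Nop58, a core protein of box C/D small nucleolar particles, had 9.30, 10.1 and 7.13 against 3.88 and 4.96 CPM (1.00 ± 0.23). Gli3, a Hedgehog effector, had 6.47, 7.83 and 7.87 against 2.91 and 4.06 CPM (1.05 ± 0.26). Ppp4r3b, Atad2, Fam98b, Zfp827, Milr1 and Zfp207 had log2 fold changes between 0.74 and 1.15. Separate groups were a condition for naming the 10, and H3K4me3 was at 21.0 to 88.9 times the mean in 9 of them, Milr1 being the exception at 4.54.

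The single-higher starts nearest to the threshold carried less H3K4me3. Pdgfb, a growth factor chain, had 5.86, 6.30 and 6.40 against 9.11 and 11.1 CPM (-0.73 ± 0.20), with H3K27ac at 11.2 and H3K4me3 at 4.83 times the mean. Selp, the adhesion molecule P-selectin, had 1.82, 3.63 and 2.21 against 4.85 and 6.17 CPM (-1.10 ± 0.30), and Plin4, a lipid droplet coat protein, 8.29, 6.11 and 6.64 against 11.1 and 11.3 CPM (-0.67 ± 0.19). 1700001P01Rik, Stpg4, Rsph14, Zfp474, Tnrc6b and Hrob lay between -0.61 and -1.21. Tnrc6b, with H3K4me3 at 34.1 times the mean, was the only one of these 10 above 20.

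Widening the starts to 2.5 kb on either side brought 20 starts past the threshold, 17 higher and 3 lower with dual staining. They are named here after their values were seen. Tnc had 12.7, 8.59 and 8.61 against 3.296 and 4.511 CPM (1.33 ± 0.24, edgeR adjusted p = 0.00128). Eif4a2, a translation initiation helicase, had 15.97, 18.7 and 16.24 against 7.17 and 10.2 CPM (0.94 ± 0.17). Gja1 had 28.7, 26.2 and 27.6 against 14.7 and 20.4 CPM, and Vegfa, the vascular growth factor, 22.8, 27.1 and 24.9 against 19.8 and 15.3 CPM (0.53 ± 0.13). Marcks, Gli3, Ext1, Zfp207, Zfp827 and Ppp4r3b also passed, as did the neighbouring pairs Ranbp1 with Trmt2a, Cep170 with Sdccag8 and Gtf3c4 with Ddx31, whose starts share bins and cannot be separated. The 3 lower starts were Pdgfb (8.29, 8.78 and 10.3 against 15.5 and 16.1 CPM, -0.80 ± 0.17), Cp, the copper carrier ceruloplasmin (7.07, 8.02 and 7.87 against 12.8 and 13.4 CPM), and Mrgpre. The 17 higher starts had H3K4me3 at 29.2 to 88.9 times the mean within 1 kb, and the 3 lower starts at 4.54 to 4.83.

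None of the 20 gene lists held a called start, so the lists are described by their medians beside the 0.09 of all starts, with TMM factors lowering each by 0.09. Of all tested starts 62.06% lay above 0 (49.22% with TMM factors). The 27 ribosomal protein genes had a median of 0.19, with 23 of 27 above 0 (18 of 27 with TMM factors). The 20 cell cycle genes had a median of 0.15 with 20 of 20 above 0 (13 of 20 with TMM factors), and the 18 H3K4 methylation genes 0.17 with 16 of 18 above 0 (16 of 18 with TMM factors). Housekeeping genes had 0.22 over 25 starts. These lists had H3K4me3 at a median of 28.4 to 37.1 times the mean in the 10000-cell libraries, against 3.45 for all starts. A high H3K4me3 level did not always go with a higher median: matrix and cytoskeleton genes, at 35.7 times the mean, had 0.07, and immediate early genes, at 26.1, had 0.06.

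Muscle genes lay on both sides of the median of all starts. The 12 tested myogenic regulators had a median of 0.13 and the 11 myoblast markers -0.06 (-0.16 with TMM factors, 4 of 11 above 0 under both scalings), the 10 contractile genes 0.10 and the 25 matrix and cytoskeleton genes 0.07, the last of which turned to -0.03 with TMM factors. Megf10, a receptor of satellite cells and the regulator with the highest mean count, had 21.2, 26.3 and 20.7 against 20.7 and 21.2 CPM (0.13 ± 0.12), and the integrin subunit Itga7 had 9.30, 7.83 and 11.6 against 10.5 and 11.6 CPM (-0.24 ± 0.18). Thbs1, the matrix protein thrombospondin, had 18.6, 19.5 and 17.5 against 13.4 and 16.7 CPM (0.29 ± 0.14). Myc, of the immediate early genes, had 25.7, 30.9 and 32.0 against 25.4 and 23.5 CPM (0.27 ± 0.11, edgeR adjusted p = 0.316). Among these 4 the groups were separate for Thbs1 and Myc only. Separate groups were common in these data, at 20848 of 82605 tested 1 kb bins. Their share over all tested starts is not given here, so such counts are descriptive.

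Clustered gene families and the genes of the CTCF and cohesin machinery were also described: 31 Hox starts had a median of 0.04 (-0.05 with TMM factors), 39 clustered protocadherin starts 0.10, and 19 CTCF and cohesin genes 0.11. Hoxc10 had 29.7, 33.0 and 33.9 against 28.7 and 27.8 CPM (0.19 ± 0.10), Pcdhb17 10.9, 12.8 and 10.8 against 9.69 and 7.97 CPM (0.41 ± 0.18), and the cohesin subunit Stag2 14.4, 14.1 and 12.8 against 11.8 and 11.7 CPM (0.23 ± 0.16). The groups did not overlap in any of the 3, and none had an edgeR adjusted p under 0.05. Separate groups alone were common among 1 kb bins, at 20848 of 82605 tested, but bins are not starts. Their share over all tested starts is not given here, so the separation of these 3 is descriptive. The starts of the other lists with over 5 tested members had medians of 0.02 for 34 olfactory and vomeronasal receptors, 0.06 for 19 immediate early genes and 0.20 for 8 imprinted genes. Lists of foreign cell types had 2 to 5 tested members each, with medians of -0.18 (neuronal and glial), 0.18 (blood), 0.39 (liver), -0.17 (pluripotency) and -0.08 (endothelial). Other members with the highest mean count in their list (Tnni2, Eef2, Rps19, Cdc6, Men1, H4c3, Olfr225, Gnas, Nefl, Apob, Pou5f1 and Cdh5) had log2 fold changes between -0.10 and 0.31, with groups that overlapped in each.

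Replication-dependent histone genes, which make histones for new chromatin in S phase, stood on the other side of 0. Their 57 tested starts had a median of -0.16 with 15 of 57 above 0, against 62.06% of all starts, and none called, and -0.26 with TMM factors. Over the 66 placed starts the CTCF density was 3.25, 3.13 and 3.13 with dual staining and 3.65 and 3.58 with single staining. At an unadjusted p under 0.05, 5 of 57 were lower and 0 higher, against 255 lower and 1116 higher of all 12645 starts, namely H2ac10, H3c3, H4c8, H3c15 and H3c10, all of which share bins with a neighbouring gene. H4c8 had 4.85, 4.58 and 5.41 against 8.72 and 6.62 CPM (-0.62 ± 0.23). The histone starts had a median H3K27ac level of 6.20 times the mean and a median H3K4me3 level of 7.62 times the mean in 10000 cells, against 1.55 and 3.45 over all starts.

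Windows of 100 kb, with more counts each, were tested in the same way. Of 25288 windows, 541 were called (2.14%), 195 higher (0.771%) and 346 lower (1.37%) with dual staining. The differences were small, since 99.5% of the 95% intervals lay within a 2-fold and 89.5% within a 1.5-fold change. The number of calls fell to 29 by DESeq2 (3 higher and 26 lower), to 312 with libraries thinned to equal depth, and to 101 without the second single library.

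Called windows were unevenly spread over the levels of each mark. Windows were put in 5 groups of near equal size by level. In the group with the most H3K27ac, 294 of 5044 were higher with single staining and 35 with dual staining. In the middle group 67 of 5028 were higher with dual staining and 9 with single staining. Single-higher windows had a median H3K27ac level of 2.85 times the mean, dual-higher windows 0.810, and all windows 0.630. The median H3K4me3 level was 1.606 in single-higher and 0.8174 in dual-higher windows, the reverse of the order among called bins. Calls toward single staining were also frequent in the top groups by Pol2S2P (215 of 5048), CTCF (209 of 5055) and H3K4me3 (175 of 5056), so the marks cannot be told apart at this scale. Depth moved with these groups, from a median of 52.0 counts per library in the lowest to 390.8 in the highest, so the power to call a window was not equal between them.

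**Figure D5:**
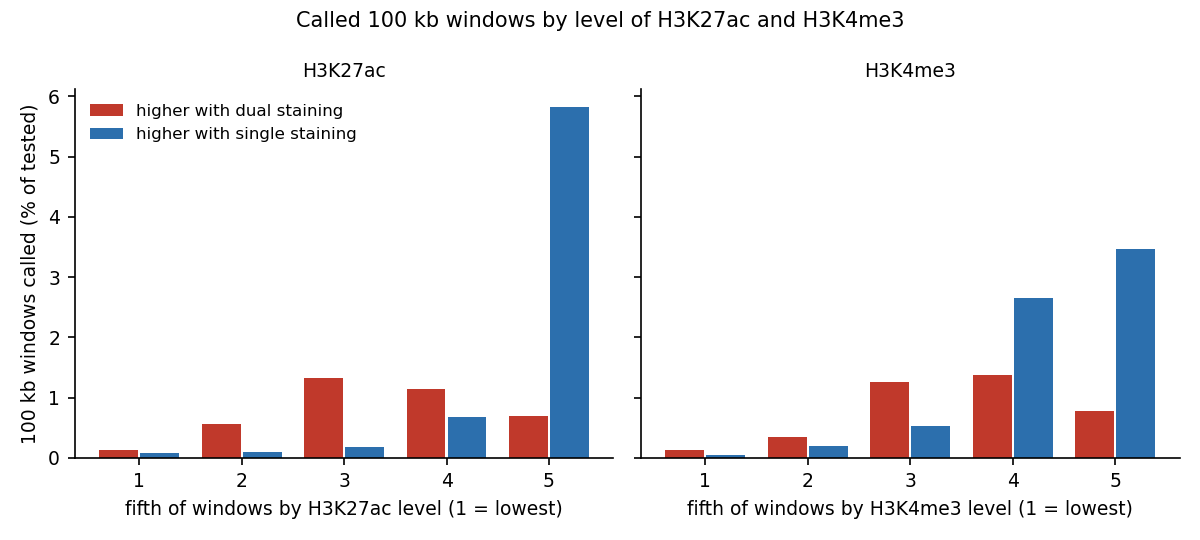
Percent of tested 100 kb windows called as higher with dual or with single staining (vertical axis from 0), in 5 groups by H3K27ac or H3K4me3 level in 1000 cells. Calls toward single staining gather in the top group of H3K27ac (294 of 5044 windows), while calls toward dual staining are most frequent in the middle group (67 of 5028).

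The largest window changes were in regions of low counts. The window chr17:81400001-81500000, within the sodium-calcium exchanger gene Slc8a1, had 12.5, 17.9 and 18.7 CPM against 11.2 and 9.62 (0.65 ± 0.17, edgeR adjusted p = 0.0159). The window chrX:42600001-42700000, within Tenm1, had 13.1, 12.2 and 13.8 against 6.98 and 9.32 CPM (0.65 ± 0.19), and chr1:105400001-105500000 had 17.99, 13.6 and 17.7 against 9.89 and 11.7 CPM (0.58 ± 0.17). Toward single staining, chr14:109200001-109300000, with no annotated gene, had 6.47, 7.06 and 9.59 against 12.2 and 12.8 CPM (-0.72 ± 0.20). The windows chr6:19500001-19600000 (8.69, 6.87 and 8.12 against 11.4 and 14.1 CPM) and chr14:88800001-88900000 (9.30, 6.30 and 4.92 against 12.02 and 10.7 CPM) had -0.72 ± 0.20 and -0.70 ± 0.21. The H3K27ac level of these 6 windows was 0.241 to 0.438 times the mean, below the median of all windows.

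Runs of adjacent windows were looked for after the calls were seen. There were 5 runs of 3 called windows, all higher with single staining. The run chr6:115200001-115500000 holds Pparg, the regulator of fat cell differentiation, with Timp4 and Syn2, and had 180, 188 and 186 against 229 and 229 CPM. The run chr15:102200001-102500000 holds Itgb7, Rarg, Sp7 and Sp1 and had 472, 470.1 and 488 against 544 and 541 CPM. At chr11:42900001-43200000, around Atp10b, the values were 133, 135 and 137 against 183 and 185 CPM, and at chr14:76600001-76900000, with noncoding genes only, 159, 185 and 176 against 218 and 212 CPM. The 5 runs had H3K27ac at 1.71 to 5.86 times the mean, against a median of 2.85 over all single-higher windows. Their H3K4me3 was at 0.752 to 6.54 times the mean, and the run with Itgb7 had more H3K4me3 (6.54) than H3K27ac (5.53). The marks cannot be told apart in these runs.

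Whole chromosomes differed by under 2%. The share of counts on chromosome 15 was 6.12, 6.18 and 6.13% with dual and 6.22 and 6.24% with single staining, and that on chromosome 14 was 3.64, 3.65 and 3.65% against 3.69 and 3.70%. Chromosome 19 had 2.73, 2.72 and 2.74% against 2.70 and 2.66%, and X 2.79, 2.81 and 2.80% against 2.73 and 2.77%. These 4 had the largest differences. Groups were separate on 10 of 20 chromosomes (4, 7, 8, 10, 13, 14, 15, 18, 19 and X).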

How the data were processed

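Multi-target chromatin integration labelling of C2C12 cells was analysed from the raw counts in bins (GRCm38) of 1 kb that the authors deposited, unscaled. The submitters' processing notes name bcl2fastq, HISAT2 2.1.0 and deepTools 3.3.1. The sources used here do not give the handling of duplicates, multiply mapped reads or probe sequences. Insertions of the 2 probes lie in the same cells, so any misassignment between antibodies would enter the CTCF counts. Of 34 samples, 28 matched a column by name and 4 columns matched none and were not used. The comparison, its members and the lists were chosen with earlier results of these data known.

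Of 2728634 bins, 2631639 lie on the autosomes and X. Leaving out 24 bins over 50 times the mean in each of the 5 libraries (14 of them also over 50 times in H3K4me3, the other 10 not) gave 2631615, whose total was the library size. CPM is the count per 1000000 of that total. Genes came from RefSeq GRCm38.p6: 21627 protein-coding genes gave 20953 starts, 17273 by strand (in a gene with several, the start with the most H3K4me3 in 1000 cells, which favours marked starts) and 3680 by the end with more H3K4me3 in 1000 cells, with 674 ties left out. Of these starts 13.2% share bins with another gene.

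Counts were tested with edgeR 4.0.16 in R 4.3.3 (quasi-likelihood, filterByExpr, plain library sizes, the 5 libraries only, Benjamini-Hochberg adjustment, threshold 0.05). Alternatives were TMM factors, DESeq2 1.42.0, no filter, a replicate block, thinning to 4064887 counts, keeping the very high bins, leaving out each library, other widths and ends of starts, and other class limits. Tables were handled with data.table (version 1.17.8), limma 3.58.1 (with edgeR), Python 3.11.15, numpy 2.4.6, pandas 2.3.3 and scipy 1.17.1, and plots with matplotlib 3.10.9. In simulated counts with 50 features changed at each size, the test recovered 30% of 2-fold and 66% of 4-fold changes over 82605 bins, 72% and 98% over 12645 gene starts, and 92% of 1.5-fold changes over 25288 windows. The changed features were not drawn from those with the lowest mean counts, so these rates do not cover such features. False calls numbered 1 over bins, 5 over gene starts and 10 over windows. Intervals cover counting error and the spread of these libraries only.

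Named features were, in each direction, the 8 bins, 10 gene starts and 3 windows with the largest called change, no overlap and, in each library of the group that was higher, at least 10 (bins) or 20 (starts) counts, bins 10 kb apart and starts sharing no bin, filled up by the smallest p where too few passed, and from each list, with none called, the member with the highest mean count. The 20 lists were myogenic regulators, myoblast markers, contractile apparatus, cell cycle, housekeeping, matrix and cytoskeleton, immediate early genes, ribosomal proteins, CTCF and cohesin genes, H3K4 methylation genes, Hox genes, clustered protocadherins, replication-dependent histones, olfactory and vomeronasal receptors, imprinted genes, and markers of neurons and glia, blood, liver, pluripotency and endothelium. A few named features are not reported here.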

Additional observations from a re-analysis of the deposited data

How the results depend on the processing

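The called 1 kb bins fell from 79 to 0 with DESeq2, 0 with no low-count filter, 0 with thinned libraries and 32 (13 higher and 19 lower) with a replicate block. They ranged from 0 to 4 with 1 library left out. Bins over 2 kb from gene ends fell from 56 to 0 with DESeq2, 0 with thinned libraries and 19 with the block, and ranged from 0 to 2 with 1 library left out. Gene starts went from 0 to 10 with no filter, 5 with the block, 20 within 2.5 kb and 3 with both gene ends, and to 0 to 2 with 1 library left out. Windows fell from 541 to 29 with DESeq2, 342 with the block and 312 thinned, and ranged from 101 (without the second single library) to 336 with 1 library left out. TMM factors and the very high bins moved none of these counts by over 1.5 times. Whether the replicate numbers pair the samples is not stated. The deviations of same-numbered libraries correlated at -0.0063 and -0.0014 over bins, with 2 shared numbers. Low counts per bin would weaken any correlation, so these values cannot decide the pairing. The block left the direction of all 7 density values as it was. The share of counts in the top 1% of bins turned from 0.215 to -0.139 without the second single library, with a range of -0.139 to 0.569 over the left-out libraries. The differences at H3K4me3-only bins (0.219 to 0.337), H3K27ac-only bins (-0.229 to -0.185) and gene starts (0.131 to 0.238) kept their direction with each library left out. The groups were separate in these 3, so leaving out a library could not turn the direction. With halved limits the differences in density were 0.016 (H3K4me3-only), 0.0062 (CTCF-only), 0.0046 (both) and -0.082 (H3K27ac-only), and with doubled limits 0.73, 0.51, 0.61 and -0.35. Without the second single library the difference was 0.040 at CTCF-only bins and 0.024 at bins of both, against 0.145 and 0.235. Of 759 values of named features, 173 lost and 20 gained the threshold. None changed a called direction, but called features were named only where the groups were separate. With 3 libraries against 2 no permutation p could fall below 0.1. The causes were not tested.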

Other observations

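The 24 bins left out as very high lie on chromosomes 2, 3, 6, 9, 11, 14, 15, 16 and 17 and held 0.0816 to 0.0945% of the counts with dual staining and 0.0728 to 0.0774% with single staining, so they too held a larger share with dual staining in every library. A called bin with high counts in every library was chr17:39846841-39847840, in no annotated gene, which had 23.6, 26.0 and 27.8 CPM with dual staining and 17.1 and 18.8 with single staining (0.51 ± 0.10, edgeR adjusted p = 0.0421), with H3K4me3 at 50.3 and H3K27ac at 37.5 times the mean. In 1000 cells the bin also had CTCF at 57.1 and Pol2S2P at 20.8 times the mean, so its high counts were not particular to CTCF. It was the smallest change among the 35 dual-higher bins and had the highest mean CPM of them.

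The share of bins with no CTCF count was 38.8, 37.2 and 43.9% with dual staining and 38.1 and 31.7% with single staining, in the order of the library totals. Counts off the autosomes and X were 0.127 to 0.141% of each library, with overlapping groups. In strong CTCF bins the H3K4me3 libraries of the same 10000 dual-stained cells also held counts. The 6 bins named above for their high CTCF level at H3K4me3 under 2 times the mean in 1000 cells are an example. They had 7.07 to 13.6 times the mean in the 10000-cell H3K4me3 libraries, and CTCF-only bins as a class had 2.27 to 2.54. A low 1000-cell level was part of how these bins were chosen.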
